A study of Mus musculus with 2 samples.

Results

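Short protein-coding genes are the subject here, meaning loci that span under 5000 nt from their outer start to their outer end in the RefSeq annotation of GRCm38.p6, introns included. A cluster is a stretch of RNA in which reads of a UPF1 immunoprecipitate piled up, and a cluster belonged to a short gene when that gene was the only protein-coding locus on its strand. Symbols of cytosolic ribosomal proteins (Rpl or Rps followed by a digit) were left out. This gave 2170 clusters in 646 genes, of 123349 clusters in the whole list and of 4976 annotated short loci. The length limit used no measured value. Just inside it lay Tmem229a (4985 nt), Ubald2 and Zfp422 (4984 nt each), with highest log2 folds of 5.00, 2.44 and 3.50, and just outside lay Uqcrfs1 (5005 nt), Tmem121b (5008 nt) and Spc24 (5013 nt), with 1.98, 3.37 and 2.56.

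The study used enhanced crosslinking and immunoprecipitation (eCLIP), which recovers RNA fragments held by a protein and compares them with an input library from lysate without the pull-down. The samples were 1 UPF1 immunoprecipitate and 1 input from mouse neural progenitor cells of the cortex, cultured in DMEM/F12 with B27. Both carried the genotype Upf2fl/fl, a loxP-flanked allele of Upf2, and both titles hold the word MOCK, whose meaning is not stated. The labels give neither the age of the animals nor how many supplied the cells, and with 1 library of each kind nothing measures the spread between cultures. Each cluster carries the authors' log2 fold of immunoprecipitate over input and a −log10 p of that fold. A cluster is called enriched here where both its log2 fold and its −log10 p reach 3 or more.

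UPF1 is an RNA helicase that binds RNA broadly and drives nonsense-mediated decay (NMD), the pathway that removes transcripts whose translation stops too early. It is often found on the 3′ part of mRNAs, downstream of the stop codon, where ribosomes do not displace it. Short loci hold several well-known kinds of gene. Many transcription factors of neural development and many immediate-early genes are compact, and some (Sox2, Sox3, Sox4, Jun, Rhob, Olig1) are known as genes without introns, whose mRNAs receive no exon junction complex. Other short loci encode small abundant proteins of mitochondria, ribosomes, the cytoskeleton and antioxidant defence. The annotation used here gives no exons, so loci with and without introns were not separated.

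Of the labelled cell type, 9 of 10 progenitor markers had a cluster and 6 an enriched one, among them Fabp7, Hes5 and Sox2, which are short genes. Astrocyte markers had clusters in 5 of 6 cases (4 enriched), oligodendrocyte-lineage markers in 4 of 6 (4 enriched), and neuronal markers in 4 of 7 (2 enriched). Over all protein-coding genes with a cluster, 34.8% had an enriched one, so these few markers only show which transcripts were present. No cluster lay in any of 6 microglial markers or 7 markers of vessels, fibroblasts and blood. A fold compares bound RNA with the same RNA in the input, so it is not a level, and a gene without a cluster may be lowly expressed, unbound or both. In these bulk libraries, few cells of one type and little RNA per cell cannot be told apart.

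The sequences that can be shown lie at the 5′ ends, because the reference tables hold 250 bases before and 50 bases after each RefSeq start site (GRCm38.p6). They matter as the end of the transcript where clusters were few and their folds low. Among the 560 short genes with such a window, 27 clusters in 25 genes touched it, with a median log2 fold of 0.98, and 1 of them was enriched (3.70%, Wilson 95% interval 0.66 to 18.3). Across the whole list 11.6% of clusters were enriched. The following 3 windows hold a complete cluster of at most 30 nt, printed 5′ to 3′ with the bases of the cluster in capitals.
Cenpb, chr2:131180018-131180317, minus strand: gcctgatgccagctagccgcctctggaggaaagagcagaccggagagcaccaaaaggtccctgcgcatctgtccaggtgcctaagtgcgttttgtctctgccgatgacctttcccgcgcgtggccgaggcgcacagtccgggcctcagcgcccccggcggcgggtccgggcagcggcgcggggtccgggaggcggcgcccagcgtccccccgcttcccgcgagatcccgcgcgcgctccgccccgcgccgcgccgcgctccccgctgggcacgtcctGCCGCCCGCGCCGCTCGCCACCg
Exosc6, chr8:111056089-111056388, plus strand: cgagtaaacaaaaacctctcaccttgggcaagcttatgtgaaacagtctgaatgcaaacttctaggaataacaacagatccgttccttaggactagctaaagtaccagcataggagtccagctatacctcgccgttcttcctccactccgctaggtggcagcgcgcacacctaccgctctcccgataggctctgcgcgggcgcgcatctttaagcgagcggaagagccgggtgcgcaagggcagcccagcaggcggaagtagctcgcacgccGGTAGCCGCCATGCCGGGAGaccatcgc
Tmsb10, chr6:72958183-72958482, minus strand: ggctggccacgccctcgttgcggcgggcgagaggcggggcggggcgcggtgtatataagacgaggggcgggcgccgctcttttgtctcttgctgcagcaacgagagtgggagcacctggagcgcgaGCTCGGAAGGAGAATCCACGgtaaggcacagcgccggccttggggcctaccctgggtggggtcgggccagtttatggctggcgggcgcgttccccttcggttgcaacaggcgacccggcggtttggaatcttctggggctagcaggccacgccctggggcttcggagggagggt
The capitals of Cenpb cover bases 28 to 49 after the start site and carried a log2 fold of 0.56, from 9 immunoprecipitate reads against 3 input reads. Those of Exosc6 cover bases 23 to 42 and carried the same fold of 0.56, from 6 reads against 2. Those of Tmsb10 lie before this start site but inside the annotated locus, and had a log2 fold of -1.02. Cenpb, which encodes centromere protein B, is the gene to compare them with, since its folds were higher toward the other end of the locus. No genome sequence of this build was used here, so the bases of the enriched clusters are not printed.

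UPF1 was enriched on 573 of the 2170 clusters in short genes, 26.4% (interval 24.6 to 28.3), against 11.7% of all clusters on the strand of 1 protein-coding locus. Counting only clusters within 5000 nt of the 3′ end, loci of 5000 nt or longer had 35.3% of clusters enriched (34.8 to 35.8). The median log2 fold was 2.06 (quartiles 0.98 and 3.37). By gene the order was the other way: enriched clusters were present in 175 of the 646 short genes, 27.1% (interval 23.8 to 30.6), compared with 34.8% of all protein-coding genes with a cluster. Short loci held few clusters, a median of 3 per gene and at most 21, whereas loci of at least 50000 nt had a median of 13. Among the enriched clusters the median log2 fold was 4.26 in short genes and 4.29 in loci of 5000 nt or longer. Of the 175 genes, 63 had a single enriched cluster, 41 had 5 or more, and the 10 genes with the most held 131 enriched clusters (22.9%). These were Olig1, Sox8, Tmem229a, Sox4, Atxn7l3b, Atp6v0e2, Olig2, Arhgdia, Actb and Cfl1. With 1 library pair, no test between groups of loci was possible, and these intervals cover counting error only and treat clusters or genes as independent.

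The strongest signal was found in Sox8, a transcription factor of glial development (chromosome 17, 25565893 to 25570686, minus strand, GRCm38). All 16 of its clusters were enriched. Their log2 folds ran from 3.85 to 7.62, and the highest came from 798 reads against 2 (interval 5.76 to 10.66), 399 nt from the 3′ end. No cluster of Sox8 lay more than 1366 nt from that end, in a locus of 4794 nt. Arhgdia, which holds certain small GTPases in their inactive state (chromosome 11, 120578099 to 120581624), had 11 of 11 clusters enriched, between 4.38 and 6.77, the highest from 664 reads against 3 (interval 5.21 to 9.05). Txnip, the thioredoxin-interacting protein that limits glucose uptake (chromosome 3, 96557957 to 96561857), had 9 of 9, between 4.47 and 6.62 (interval of the highest 4.13 to 11.93). All 9 also lie inside the non-coding locus Gm15441, whose strand is not known here. In these 3 genes no listed cluster fell below the threshold.

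Hsbp1, which binds heat shock factor, reached 6.39 (interval 3.90 to 11.71) with 5 of 5 clusters enriched. Atp6v0e2, a subunit of the proton pump of acidic organelles, reached 6.39 with 12 of 12. Pnrc2, a cofactor of mRNA decapping, reached 6.39 with 7 of 8, and its 1 remaining cluster, the farthest from the 3′ end at 1386 nt, had 2.35. Cd2bp2, a splicing protein, reached 6.32 with 7 of 7. Ddit4, an inhibitor of mTORC1 induced by stress, reached 6.17 (interval 4.30 to 9.22) with 6 of 6. Along Ddit4 the folds were 4.34, 5.05, 5.16, 5.79, 6.15 and 6.17 from 692 nt to 169 nt before the 3′ end, so each cluster was above the one before it. The intervals of the first (3.09 to 5.98) and the last overlapped.

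The next of the 20 leading genes included 3 of the secretory pathway. Tmed4, a cargo receptor, reached 6.01, Calr, the endoplasmic reticulum chaperone calreticulin, 5.94 (interval 4.38 to 8.22, 7 of 7 clusters), and Alg2, a mannosyltransferase of N-glycosylation, 5.92. Cst3, the secreted protease inhibitor cystatin C, reached 5.95, the tetraspanin Cd151 5.88, Paqr4 5.91, Slc35a4 5.86 and Shisa4 6.22. Srsf2, a splicing factor, reached 5.85 in 1 of 3 clusters, and Rbm8a, a core protein of the exon junction complex, 5.80 in 5 of 5. Across all 20 leading genes the counting intervals overlapped, so their order is not resolved. Of the 557 enriched clusters whose reads could be reconstructed, 243 (43.6%) rested on an input count of 1, Hsbp1, Atp6v0e2 and Cd2bp2 at their highest among them. Without such clusters Cd151 and Srsf2 were no longer called.

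**Figure D1:**
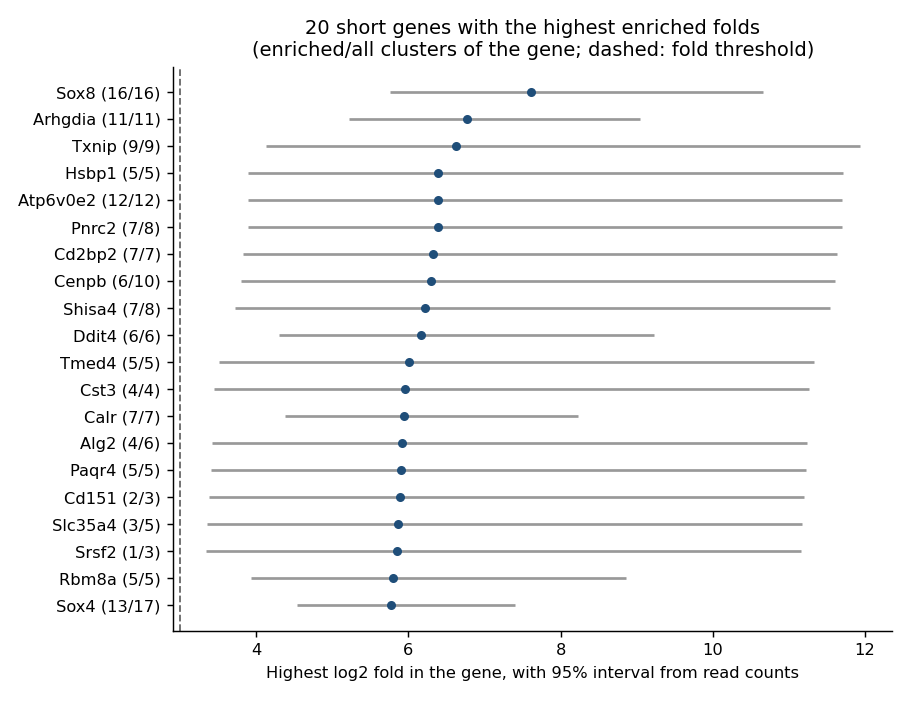
Highest log2 fold (immunoprecipitate over input, x axis) of the 20 short genes with the highest enriched folds (y axis), as points with exact Clopper-Pearson 95% intervals from the reconstructed reads. The numbers beside each name give enriched and all clusters; Sox8 leads at 7.62, Sox4 closes the list at 5.76, and the intervals overlap.

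Small loci were in part covered densely. Olig1, a transcription factor of the oligodendrocyte lineage that spans 2171 nt (chromosome 16, 91269769 to 91271939), had 21 clusters, the most of any short gene. All 21 were enriched, with log2 folds between 4.08 and 5.76, and they covered 687 nt, or 31.6% of the locus. Its neighbour Olig2 (chromosome 16, 91225550 to 91228677) had 12 of 12 clusters enriched, between 3.14 and 5.69, over 22.4% of the locus. Both genes lacked any cluster in the upstream part: the farthest lay 1266 nt from the 3′ end in Olig1 and 1020 nt in Olig2. Of the 175 genes with an enriched cluster, the median had 7.42% of its locus in such clusters, and 13 genes had 20% or more. Among the 13 were Ddit4 (25%), Rhob (24.6%), Pnrc2 (23.8%), Atxn7l3b (21.9%), Tmem229a (21.6%), Sox4 (21.3%), the linker histone gene H1f10 (20.7%) and Atp6v0e2 (20.2%).

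By length in enriched clusters, Tmem229a came first with 1079 nt, then Sox4 with 1019 nt, Sox8 with 940 nt, Atp6v0e2 with 853 nt, Atxn7l3b with 787 nt and Pou3f3 with 708 nt. Olig2 had 701 nt, Pnrc2 696 nt, Olig1 687 nt and Txnip 644 nt. Tmem229a, a transmembrane protein gene, differed from the others in position: 15 of its 19 clusters were enriched, and its highest fold of 5.00 lay 4230 nt from the 3′ end, at 15.1% of the way from its 5′ end. The cluster of Tmem229a nearest the 3′ end, at 1064 nt, had a fold of 1.64. Sox4, a factor of neuronal differentiation, had enriched clusters from 848 nt to 4302 nt before the 3′ end, with its highest fold of 5.76 at 1760 nt. All 17 clusters of Sox4 also lie inside the non-coding locus Gm46405 on the same strand, and reads of the pair cannot be told apart.

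**Figure D2:**
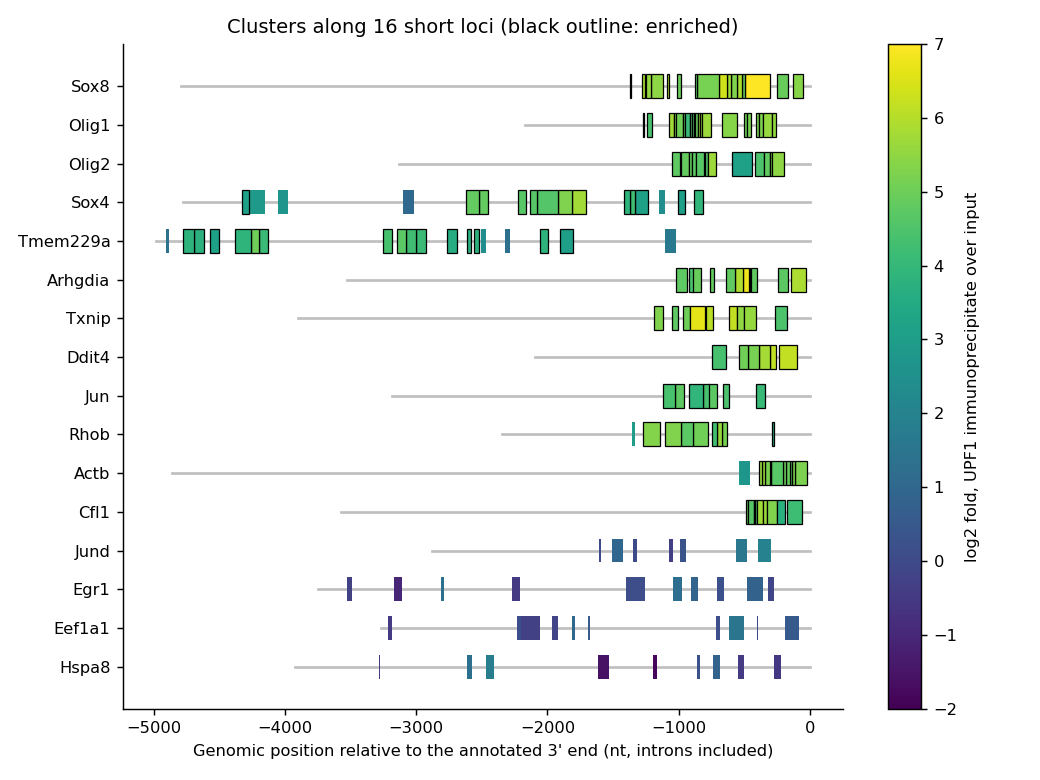
Clusters of 16 short genes (rows) along the locus, with the annotated 3′ end at 0 on the x axis (nt, introns included), grey lines for the locus, color for log2 fold and black outlines for enriched clusters. The enriched clusters of Sox8 end 1366 nt and those of Olig1 1266 nt from the 3′ end, those of Tmem229a reach 4736 nt and those of Sox4 4302 nt, and Jund, Egr1, Eef1a1 and Hspa8 have none.

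The position of enriched clusters was counted in 3 equal parts of each locus of at least 1000 nt. The part nearest the 3′ end held 418 of the 572 enriched clusters (73.1%, interval 69.3 to 76.5), the middle part 134 (23.4%) and the part nearest the 5′ end 20 (3.50%). Clusters of any kind were also more frequent toward the 3′ end, with 1293 of 2148 in the last part. Within the parts, 32.3% of clusters were enriched in the last (interval 29.8 to 34.9), 25% in the middle and 6.27% in the first (interval 4.09 to 9.48). In the first 500 nt of loci of at least 2000 nt, 6 of 132 clusters were enriched (4.55%, interval 2.10 to 9.56). Of these 6, 3 were in Tmem229a and 1 each in Sox4, Tmem265 and Dnlz, the last from an input count of 1. In the 175 genes the highest cluster lay a median of 466 nt from the 3′ end (quartiles 248 and 1066), and in 162 of them it lay nearer to the 3′ than to the 5′ end.

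Several genes showed the step within 1 locus. Actb, the cytoplasmic beta-actin gene (chromosome 5, 142903115 to 142907976), had 10 clusters within 373 nt of its 3′ end, all enriched with folds of 4.67 to 5.61, and 2 clusters at 492 and 534 nt with folds of 2.72 and 2.92. The 2 upstream clusters of Actb were deeply read, with 869 reads against 65 and 432 against 28. The 10 enriched clusters of Actb touch end to end and form an unbroken run from 142903139 to 142903499. These clusters of Actb also lie opposite the non-coding locus Gm38733 and the strand setting of the counts is not given. Its paralog Actg1 had folds of 4.30 and 4.26 in the last 482 nt, both from an input count of 1 and uncalled without such clusters, and 0.56 or less in its 4 upstream clusters. Cenpb had 6 clusters within 651 nt of its 3′ end with folds of 4.0 to 6.30 (highest interval 3.80 to 11.61). Its 4 upstream clusters, ending with the one printed above, had 2.97, 2.15, 1.20 and 0.56. Sox3, a progenitor factor, had 4.88 in its last cluster, 80 nt from the 3′ end, and 1.44 in the cluster at 1676 nt. Ckb, brain creatine kinase, had 2.81 at 128 nt from its 3′ end, from 100 reads against 7, and 0.49 or less in its 6 other clusters. A threshold of 2 on the fold would call Ckb.

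Longer loci gave the comparison for these positions. Under 500 nt before the 3′ end, 30% of clusters in short genes were enriched (interval 26.8 to 33.4), and 33.1% in loci of at least 10000 nt (interval 31.9 to 34.3). From 500 to under 1000 nt the shares were 34.9% (30.7 to 39.2) and 41.4% (40.1 to 42.6). From 1000 to under 2000 nt they were 23.6% (20 to 27.5) and 42.4% (41.3 to 43.5), and from 2000 to under 3000 nt 16.6% and 36.6%. A given distance from the 3′ end reaches the 5′ part of a short locus but not of a long one, so the same distance is not the same part of the transcript. Loci of 5000 to under 10000 nt stood at 32.9% and 16.7% in those same bins of distance. Under 500 nt the intervals of short loci and of loci of at least 10000 nt overlapped, and between 500 and 5000 nt they did not. The intervals of loci of 5000 to under 10000 nt overlapped those of short loci except from 1000 to under 2000 nt (29.7 to 36.1). From 3000 to under 5000 nt these loci had 6.58% of clusters enriched (4.81 to 8.94), and short loci 11.0% (7.10 to 16.8). No test of these differences was possible.

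**Figure D3:**
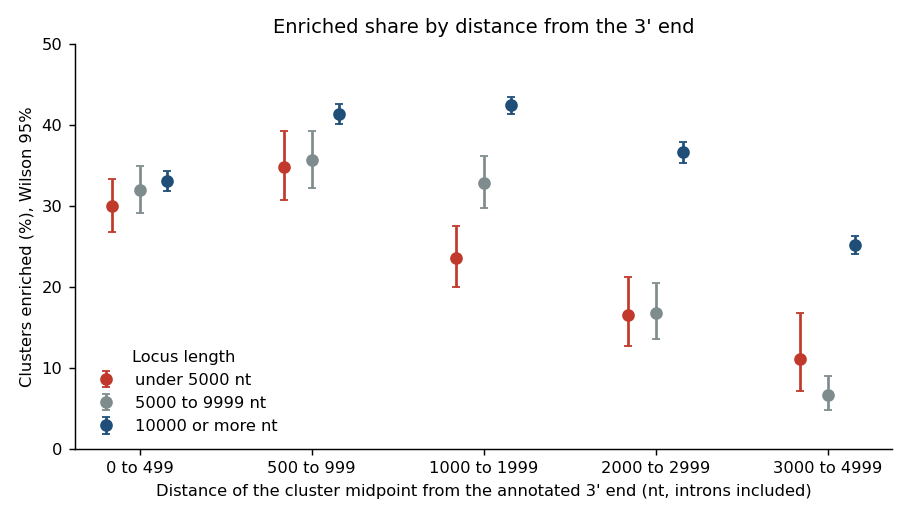
Share of clusters that were enriched (y axis, percent, Wilson 95% intervals) by distance of the cluster from the annotated 3′ end (x axis, nt), for loci under 5000 nt, 5000 to under 10000 nt and 10000 nt or more. Short loci start at 30% and end at 11.0%, loci of 5000 to under 10000 nt go from 31.9% to 6.58%, and loci of at least 10000 nt from 33.1% to 25.1%.

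Genes with more clusters had an enriched one more often, at every locus length. Of the short genes with 1 cluster, 9 of 159 were enriched (5.66%), with 2 to 4 clusters 72 of 330 (21.8%), with 5 to 9 clusters 76 of 135 (56.3%, interval 47.9 to 64.4) and with 10 or more 18 of 22 (81.8%, interval 61.5 to 92.7). In loci of at least 10000 nt, counting only clusters within 5000 nt of the 3′ end, the shares were 2.52%, 22.1%, 64.3% (62.2 to 66.3) and 93.6% (91.5 to 95.2). The intervals of the 2 length classes overlapped in each of these 4 steps. Most clusters without a call had few reads. With 1 input read, at least 24 immunoprecipitate reads were needed to pass both thresholds, and 172 of the 1597 clusters that were not enriched had that many. In 431 of the 471 genes without an enriched cluster, no cluster with a reconstructed count reached 24 reads. Clusters with a fold of 0 or less carry a −log10 p of 0 and could not be reconstructed. The 431 genes include 32 with every cluster below 0, such as Fth1, which were measured below input; for clusters with a positive fold and under 24 reads, enrichment at these thresholds was not detectable at this depth.

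**Figure D4:**
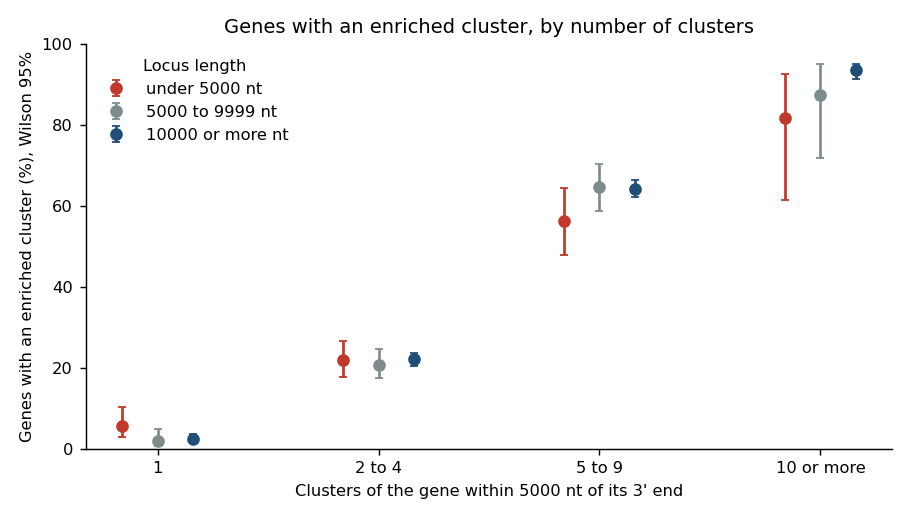
Genes with any enriched cluster (y axis, percent, Wilson 95% intervals) by the number of clusters within 5000 nt of the 3′ end (x axis), for 3 classes of locus length. Short genes go from 5.66% with 1 cluster to 81.8% with 10 or more, and the longer classes run beside them.

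Genes were then read in lists by function, each set beside all short genes, of which 27.1% had an enriched cluster and whose median highest log2 fold was 2.15. Depth differed between lists. Of the 215 short genes with a cluster of enough reads to pass, 81.4% had an enriched one (interval 75.7 to 86.0). Such a cluster was present in 9 of 10 helix-loop-helix and ID genes, 10 of 14 of the SOX list and 10 of 20 immediate-early genes. It was present in 1 of 13 oxidative phosphorylation genes, 1 of 13 mitochondrial ribosomal genes and 2 of 9 mitochondrial import genes. Among lists without a call it was present in 3 of 8 chaperones and 1 of 5 Sm, LSm and RNA polymerase genes. The same held for 1 of 4 translation factors and 0 of 2 proteasome genes. Whether lists differ at equal depth was not tested. Basic helix-loop-helix and ID factors, which steer neural progenitors between growth and differentiation, had an enriched cluster in 8 of 10 genes (80%, interval 49.0 to 94.3), with a median of 3.96. Beside Olig1 and Olig2, Id4, an inhibitor of DNA binding, reached 5.45, Id2 4.19 and the Notch effector Hey1 3.73. Hes6 and the Notch effector Hes5 reached 3.30 and 3.19 and, with Hey1, lost their call at a −log10 p of 5. Hey1 also lost it with input counts of 1 uncalled. Id3 and the proneural factor Neurog2 had no enriched cluster, with 2.15 and 1.78.

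SOX, POU, FOX, C/EBP, MAF and homeobox factors were enriched in 8 of 14 genes (57.1%, interval 32.6 to 78.6), with a median of 3.65. Beside Sox8, Sox4 and Sox3 these were Sox21 (5.35), Sox12 (4.47), Pou3f3 (4.31), Maf (3.68) and Sox2 (3.62). Maf lost its call at a −log10 p of 5. Sox2, the core factor of neural progenitors, had 2 of 11 clusters enriched, at 816 and 155 nt from the 3′ end, and 0.40 or less in its 3 clusters at 1626 nt or farther. The fold of 3.62 rested on 350 reads against 14, which narrows its interval to 2.85 to 4.51. All 11 clusters of Sox2 lie inside Sox2ot, and all 13 of Pou3f3 inside Gm46091, on the same strand. Sox1, the close relative of Sox2 and Sox3, had 4 clusters and a highest fold of 1.56 (interval -0.61 to 4.76). All 4 clusters of Sox1 lie inside Sox1ot on the same strand.

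Immediate-early and unstable transcripts, which are made rapidly on stimulation and decay fast, were split. Enriched clusters were present in 8 of 20 genes (40%, interval 21.9 to 61.3), with a median of 2.35. Rhob, a small GTPase, had 8 of 9 clusters enriched and reached 5.62. Jun had 7 of 7, between 3.87 and 4.76 (highest interval 3.18 to 7.05), all within 1072 nt of the 3′ end. Gadd45g, a growth-arrest gene, reached 4.59, and Btg2, an antiproliferative adaptor of deadenylation, 4.47. The relatives of Jun stood lower: Jund had 7 clusters with a highest fold of 1.98 (interval -0.11 to 5.14), and the 1 cluster of Junb had -0.02. The intervals of Jun and Jund overlap. Egr1 had 10 clusters with folds between -1.02 and 1.30, and its deepest held 29 reads against 13. Fos had 8 clusters and 1 enriched, with a fold of 3.30 at 534 nt from the 3′ end and folds of 1.86 or less elsewhere. Dusp1, Socs3 and Zfp36 had -0.29, 0.98 and 0.98. With a −log10 p of at least 5 the share of this list fell to 20%, beside 20.6% of all short genes at that threshold. Fos, Ier2, Ier5 and Zfp36l2 were then no longer called. Ier2 and Ier5 also lost their call with input counts of 1 uncalled.

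**Figure D5:**
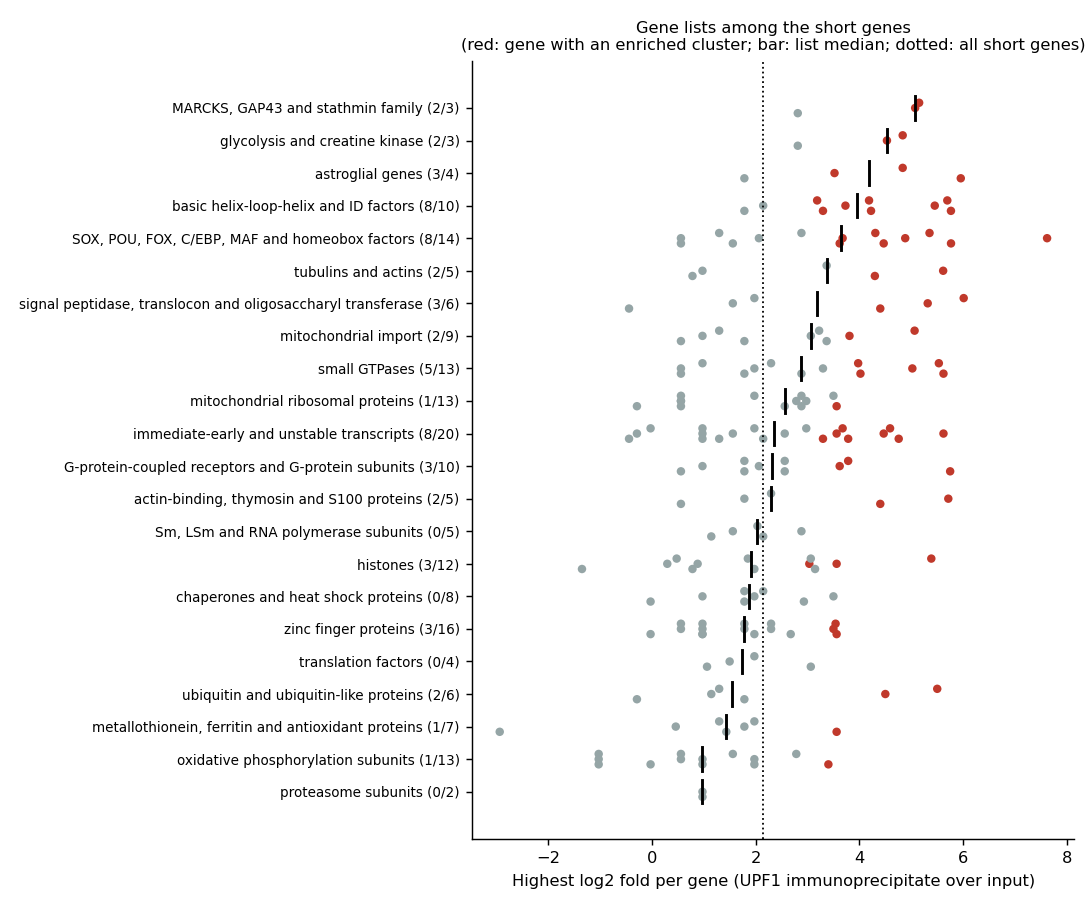
Highest log2 fold of each short gene (x axis) in 22 functional lists (rows, ordered by median; enriched and all genes in brackets). Red points have an enriched cluster, black bars mark list medians, and the dotted line at 2.15 is the median of all short genes; helix-loop-helix factors sit at 3.96 and oxidative phosphorylation subunits at 0.98.

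Genes of the cytoskeleton and of small GTPases held several high folds. Cfl1 and Cfl2, the actin-severing cofilins, had 9 of 9 and 5 of 5 clusters enriched, with highest folds of 5.71 (interval 4.15 to 8.0) and 4.40. Their list of actin-binding, thymosin and S100 proteins had 2 of 5 genes enriched and a median of 2.30, with Tmsb10 at 2.30, Myl6 at 1.78 and the profilin Pfn1 at 0.56. Of tubulins and actins 2 of 5 were enriched, both actins, while Tubb5, Tubb2a and Tuba1a reached 3.37, 0.98 and 0.78 without a call. A threshold of 2 on the fold would call Tubb5. Small GTPases were enriched in 5 of 13 genes (38.5%, median 2.88): Rhob, Arf5 (5.53), Arl4a (5.02), Rac3 (4.02) and Rnd2 (3.98). Rac3 lost its call at a −log10 p of 5 and with input counts of 1 uncalled. Arl4c, the relative of Arl4a, had 7 clusters and reached 3.30 without passing the p threshold. Marcksl1, a membrane-bound actin regulator, reached 5.07. Nnat, neuronatin, belongs to neither group and reached 5.15 with 9 of 9 clusters, all opposite Blcap.

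Genes of the respiratory chain and ATP synthase had low folds. Of 13 oxidative phosphorylation subunits with a cluster, 1 was enriched (7.69%, interval 1.37 to 33.3), with a median highest fold of 0.98: Cox8a at 3.40, followed by Uqcr10 at 2.78 and Cycs at 1.98 without a call. Atp5k had 5 clusters and reached 0.98, and Atp5g3 had 3, all below 0. Mitochondrial ribosomal proteins had 1 of 13 enriched, Mrpl49 at 3.56, but a median of 2.56, above that of all short genes. Mrpl49 lost its call at a −log10 p of 5 and with input counts of 1 uncalled. Of 9 mitochondrial import genes 2 were enriched, Timm29 at 5.06 with 6 of 10 clusters and Tomm22 at 3.81 (median 3.06). Reads were few where calls were missing: the highest clusters of Uqcr10 and Cycs held 14 and 8, each against 1.

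No gene was enriched among 8 chaperones and heat shock proteins (median 1.88; with 3 counts as the limit for a count of 0, a share of up to 37.5%), 5 Sm, LSm and RNA polymerase genes (2.03; up to 60%), 4 translation factors (1.74; up to 75%) or 2 proteasome genes (0.98; the limit of 3 counts exceeds the total). The chaperone list did not hold Calr, the enriched chaperone at 5.94 described above. Hspa8, the constitutive HSP70, had 10 clusters with folds between -1.83 and 1.78. Its clusters at -1.83 and -1.61 lay in loci of small RNAs within the gene, Snord14d and Snord14c. Eef1a1, the elongation factor that delivers aminoacyl-tRNA, had 10 clusters reaching 1.5 (interval -0.05 to 3.49). Dnajc28 reached 3.50 and Eif1ad 3.06 without passing the p threshold. Of 7 metallothionein, ferritin and antioxidant genes 1 was enriched, Gpx1 at 3.56 from 24 reads against 1, a call lost at a −log10 p of 5 and with input counts of 1 uncalled. Mt1, Mt2 and Mt3, the metal-binding metallothioneins, reached 1.44, 0.46 and 1.78, and both clusters of the ferritin heavy chain gene Fth1 lay below input, at -2.93 and -4.22. Near-identical copies and processed pseudogenes can share reads with Eef1a1, Hspa8, Fth1, Actb and Actg1, so their values are uncertain.

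Among ubiquitin-like genes the members of the autophagy branch were the called ones. Gabarap and Map1lc3a, which attach to autophagosome membranes, had all 3 of their 3 clusters enriched and reached 5.50 (interval 2.99 to 10.82) and 4.50. All 3 clusters of Gabarap rested on an input count of 1, and its call was lost with those uncalled. Ubb and Fau had highest folds of 1.78 and -0.29. Of 12 histone genes with a cluster 3 were enriched (25%, median 1.91): H1f10 at 5.39 with 3 of 3 clusters, H1f0 at 3.56 and H2ax at 3.03. H1f1, H1f3 and H1f4, linker histones made in S phase, stood at -1.35, 0.88 and 0.48. H2bc21 and the replacement histone H3f3b reached 3.15 and 3.06 without passing the p threshold, and the deepest reconstructed cluster of H3f3b held 120 reads against 20, at a fold of 1.56. The 3 enriched clusters of H1f10 each rested on an input count of 1. Histone copies are nearly identical and can share reads, which makes single values uncertain.

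Among receptors and G-protein subunits 3 of 10 genes were enriched (30%, median 2.31). S1pr1, a sphingosine 1-phosphate receptor, reached 5.75 with 5 of 5 clusters. The Wnt receptors Fzd7 and Fzd2 reached 3.78 and 3.62, in 1 cluster each, and lost their call at a −log10 p of 5 and with input counts of 1 uncalled. Fzd9, Fzd1, Fzd10 and Fzd8 reached 2.56, 2.56, 2.06 and 0.98 without a call. In the secretory list Tmed4, Tmed9 and Tmed1, related cargo receptors, were the 3 enriched genes of 6, at 6.01, 5.32 and 4.40, and Tmed1 lost its call with input counts of 1 uncalled. Aldoc and Tpi1 of glycolysis reached 4.83 and 4.53, the latter from input counts of 1 alone, and Fabp7, the fatty acid binding protein of radial glia, 3.52 (interval 2.36 to 4.99). Zinc finger genes were enriched in 3 of 16 cases (18.8%, median 1.78).

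Stress-response factors, regulators of the progenitor state and some other genes were read outside the lists, chosen after their values were seen. Except for the genes of the chaperone list named next, all were picked from the 27.1% of short genes with an enriched cluster. Their number therefore says nothing about these functions. Of the chaperone list, Hspa5, Dnajb9 and Dnajb1 reached 1.78, 0.98 and 2.93 without a call. Atf4, the activator of the integrated stress response and a known NMD target, reached 5.20 (interval 2.68 to 10.53) at 424 nt from the 3′ end, with 2 of 4 clusters enriched. Its relative Atf5 reached 5.51 with 3 of 8 clusters enriched, the highest 2796 nt from the 3′ end of a locus of 4403 nt. Nrarp, a feedback inhibitor of Notch signalling, reached 5.06 with 3 of 8, Gas1, a coreceptor of Hedgehog signalling, 4.98 with 5 of 7, and Cdkn1c, the cell cycle inhibitor p57, 5.44 with 2 of 2. Each of these 5 highest folds rested on an input count of 1, and Atf5 and Gas1 lost their call with such clusters uncalled. Hnrnpa0, an RNA-binding protein, had 9 of 11 clusters enriched with a highest fold of 5.30. Grina and Lypla2 had every cluster enriched, 6 and 8 of them, between 3.87 and 5.59 and between 3.98 and 5.34.

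Within single genes the clusters varied widely. Of 157 short genes with at least 5 clusters, 21 had every cluster enriched, 73 had some and 63 had none, and the median range from lowest to highest fold was 2.30 log2 units (quartiles 1.74 and 3.07). Clusters of 1 gene share their RNA and its level in the input, and touching clusters may share reads, so they are not replicates.

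Some genes had many clusters and no enriched one. Among the 10 with the most were Eef1a1, Egr1, Hspa8 and Pabpn1 with 10 each, Nr1h2 with 9, Tmem250-ps with 8, and 2310011J03Rik, Arl4c and Cdk5r1 with 7. Their depth differed. In Cdk5r1, the activator p35 of the kinase CDK5, all 7 folds lay between 2.56 and 3.44 from 12 to 22 reads against 1, and the −log10 p of the highest was 2.8. Pabpn1, the nuclear poly(A)-binding protein, had a cluster of 363 reads against 176 near its 5′ end, a fold of 0.02, and no fold above 1.78.

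Folds below 0 were found in 196 of the 2170 clusters (9.03%), against 26.8% of the whole list, and each carries a −log10 p of 0. The lowest were in Nop56 (-7.29), Rpsa (-6.57), Tpt1 (-6.16) and Rplp2 (-4.98). Those clusters lay in annotated snoRNA loci within the genes, small RNAs that are usually processed out of introns. In all, 12 clusters of short genes touched a snoRNA locus, with a median of -5.11 and a highest of -1.61. Of the 12 clusters at -3 or lower, 10 touched one. The other 2 were in Fth1 (-4.22) and Tpt1 (-4.0). Rpsa and Rplp2 encode ribosomal proteins but were kept, since their symbols carry no digit after Rps or Rpl. The lowest highest folds among genes with at least 3 clusters were those of Fau (-0.29), Tpt1 (-0.18), Atp5g3 and Nop56 (-0.02 each) and Aup1 (0.30).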

How the data were processed

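Both eCLIP libraries, 1 UPF1 immunoprecipitate and 1 input, entered the deposited cluster list, which has no header. Per the submitters' processing notes, UMI-tools, cutadapt, STAR and mm10 were used. For the cluster caller and its filters, none of the sources used here gives a name. The log2 fold of immunoprecipitate over input and the −log10 p (at most 400) are the authors' values, recognised from the numbers.

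Read counts were reconstructed here. The commonest positive fold, 0.56, was taken as 3 reads against 1, which sets the ratio of library sizes to 2.03, and each fold was matched to the pair of counts that also gave its −log10 p (tolerance 0.05 or 1%; exact binomial test under 5 reads, otherwise chi-square). This returned counts for 1956 of 1974 clusters with a positive fold (99.1%); the script was tested on simulated data. The total depth of either library is unknown here. An input count of 1 may also stand for 0 reads.

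A cluster was assigned when exactly 1 protein-coding RefSeq locus on its strand covered at least 50% of its bases; 560 genes took their strand from RefSeq start sites and 86 from at least 80% of 2 or more clusters. Ribosomal symbols removed 49 genes and 166 clusters. Shares carry Wilson, folds Clopper-Pearson 95% intervals, which cover counting error only. With 1 library of each kind there is no test.

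Genes were named by rule: the 20 highest enriched folds, the 10 with most nt in enriched clusters, the 10 with most clusters and none enriched, the 5 lowest highest folds with at least 3 clusters, and per list the 3 highest and the 2 with most clusters and none enriched. Other names were chosen after their values were seen. A few genes that the rule or the lists include are not reported here. Members and lists were chosen with earlier results of these data known. Alternative thresholds, length limits, assignment rules and merging were tried. Python 3.11.15, numpy 2.4.6, pandas 2.3.3, scipy 1.17.1 and matplotlib 3.10.9 were used.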

Additional observations from a re-analysis of the deposited data

Results flagged for a closer look

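Some clusters in short loci were assigned to no gene and enter no comparison above; enriched clusters occurred among them, beside shares of 11.6% over the whole list and 26.4% over the assigned clusters of short genes. No difference from these shares was tested, and each of the following 3 intervals includes at least 1 of them. Where more than 1 protein-coding locus lay on the strand, 8 of 46 clusters were enriched (17.4%, interval 9.09 to 30.7), among them clusters shared by Ccdc9 and Inafm1, by Dph1 and Ovca2 and by Gp1bb and Septin5. Where no protein-coding locus lay on the strand, 6 of 84 were enriched (7.14%, interval 3.31 to 14.7), with the highest log2 fold of 5.33 in the loci of Eid1 and Shc4. Where a further locus of unknown strand overlapped or under 50% of the cluster lay inside the locus, 11 of 39 were enriched (28.2%, interval 16.5 to 43.8), including clusters at Paqr4 and Pkmyt1 and a fold of 5.58 at Mrps17.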

How the results depend on the processing

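No paired analysis was possible because each kind of library has 1 sample. Of 46 main values recomputed, 34 were scored as unmoved and 12 as moved, by their interval where they had one. The count of lists, given below, has no interval. The share of clusters enriched (26.4%) was 30.2% with a log2 fold of at least 2, 20.1% with a −log10 p of at least 5, 19.9% with touching clusters merged and 15.2% with input counts of 1 uncalled. The share of genes (27.1%) was 20.6% at a −log10 p of 5, 34.1% among genes with at least 2 clusters and 17.6% with input counts of 1 uncalled. The median highest fold (2.15) was 2.64 among genes with at least 2 clusters, and the median cluster fold (2.06) was 1.78 after merging. With loci under 10000 nt, 84.8% of enriched clusters lay in the last of 3 parts. Of 17 lists with at least 5 genes, 9 exceeded the share of all short genes. With loci under 3000 nt 4 of the 7 lists that still had 5 genes did, and with loci under 10000 nt 14 of 22, of which the original 17 lists gave 9. At a −log10 p of 5 the count was also 9, but with other members. Immediate-early transcripts (20%) and receptors (10%) were then below the 20.6% of all short genes. Histones (25%) and mitochondrial import (22.2%) were above it. Of 453 gene values, 452 moved by less than their interval. The 110 values under the limit to genes with at least 2 clusters could not move. Without clusters that overlap another locus Actb was 2.92. Under that setting Sox4, Txnip, Pou3f3, Nnat, Sox1, Uqcr10, Ost4 and Gpx8 kept no cluster and are not in this count. A −log10 p of 5 ended the call of 42 genes and input counts of 1 that of 61, while a fold of 2 added 12.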

Other observations

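The 300 nt around RefSeq start sites (250 before, 50 after) had a median GC content of 61.3% in the 560 short genes with a cluster and a window (quartiles 56.3 and 66.7), of 63.8% in the 136 of these with an enriched cluster, and of 52.7% over all 27025 windows of the reference. No test was made. Of the short loci annotated, 13.0% had a cluster, and of loci of 5000 nt or longer 51.6%.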
